A study of Sus scrofa with 6 samples.

Results

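Mitochondrial DNA (mtDNA) is copied, transcribed and kept by proteins that are encoded in the nucleus, and 10 of these were followed in IPEC-J2 cells, a cultured line of porcine small intestinal epithelium. The 10 genes were TFAM, TFB2M and POLRMT (transcription), TFB1M (a relative of TFB2M that modifies rRNA), TWNK, POLG and SSBP1 (replication), LRPPRC and SLIRP (RNA stability) and LONP1 (a matrix protease). They were chosen by name, all 10 were found among the 31908 Ensembl pig gene IDs of the expression table, and the listed transcripts of each ID were summed. The design allows each factor's level to be compared between treated and untreated cells, and to be set beside the mRNAs made from mtDNA itself.

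RNA was sequenced from 6 libraries. The 3 CON libraries came from cells given PBS and the 3 CDCA libraries from cells given 50 μM chenodeoxycholic acid, a primary bile acid, each for 24 h. Both groups were the same cell line, for which the labels name no transgene or deletion, and nothing in them says whether the 3 libraries of a group came from separate cultures, so p-values measure only the spread between these libraries. In such bulk RNA, fewer cells that express a gene and less RNA per cell cannot be told apart.

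Mammalian mtDNA is read from both strands into long RNAs that are cut into mRNAs, rRNAs and tRNAs. TFAM bends the promoter and also packages the genome, TFB2M opens the promoter and POLRMT is the RNA polymerase, whereas TFB1M methylates the small rRNA of the mitochondrial ribosome. For replication, the helicase TWNK unwinds the duplex, SSBP1 coats the single strand and POLG is the catalytic subunit of the polymerase. LRPPRC and SLIRP form a complex that binds mitochondrial mRNAs, keeps them stable and promotes their polyadenylation, and LONP1 degrades damaged proteins as well as TFAM that is not bound to DNA.

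The authors gave values in TPM, a unit that scales reads by transcript length and by the library's total, so that levels of different genes can be set side by side. The paper gives the range of clean reads per sample, but no read counts were in the table used here. The number of reads behind each value is therefore not known. The listed TPM of a library summed to between 351770 and 366073 of a full library's 1000000, and 8484 to 8691 genes reached 1 TPM per library. The epithelial markers KRT8 (190 to 238 TPM over the 6 libraries), KRT18 (64.6 to 79.2 TPM) and EPCAM (118 to 173 TPM) were abundant, and KRT18 and EPCAM were higher in CDCA (log2 fold changes of 0.19 and 0.39, FDR 0.013 and 0.0015), whereas KRT8 had a log2 fold change of -0.12 (FDR 0.18). The epithelial markers CDH1, VIL1 and CDX2 were listed under 1 TPM in every library, and KRT19 was not matched in the table. The summed level of 8 markers of immune, endothelial and mesenchymal cells was 3.20 to 4.10 TPM in CON and 6.99 to 7.55 TPM in CDCA. PTPRC, which defines leukocytes, was at 0.01 TPM or less. CD68, a lysosomal protein of macrophages, was listed at 0, 0 and 0.26 TPM in CON, against 4.44 to 5.33 TPM in CDCA, and PECAM1, an endothelial marker, fell from 1.92 to 1.22 TPM (log2 fold change -0.39, limma FDR 0.025). Without CD68 the marker sum was 3.20 to 4.10 TPM in CON and 2.22 to 2.64 TPM in CDCA. The part of these markers in the results below was not tested.

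Each gene whose mean over the 6 libraries reached 1 TPM was compared between the groups by limma on log2(TPM + 1), and 8708 genes were tested. A gene is said to have risen or fallen in CDCA where the Benjamini-Hochberg FDR over all tested genes was under 0.05, and to have been called where the log2 fold change was also over 1 in size, the fold limit of the study. Of the 10 factors 8 were tested, and TFB2M and POLRMT lay under the limit. Of the 8, 5 fell (LONP1, TWNK, TFB1M, LRPPRC and TFAM), SSBP1 rose, and POLG and SLIRP did not pass. Over all tested genes 23.9% fell and 29.3% rose. None of the 8 was called by limma, and none had an unadjusted p under 0.05 with a log2 fold change over 1 in size, whereas 7.42% of all tested genes were called. SSBP1 was called when 0.1 TPM was added before taking logs rather than 1 TPM (log2 fold change 1.27), with the listed TPM rescaled to 1000000 (1.13), without CON replicate 1 (1.08) and without CDCA replicate 3 (1.03). The median log2 fold change of the 8 factors was -0.34, beside 0.05 for all tested genes. All CDCA libraries lay below all CON libraries for the 5 factors that fell, as they did for 27.8% of all tested genes. They lay above all CON libraries for SSBP1, as they did for 2941 of the 8708 tested genes.

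**Figure D1:**
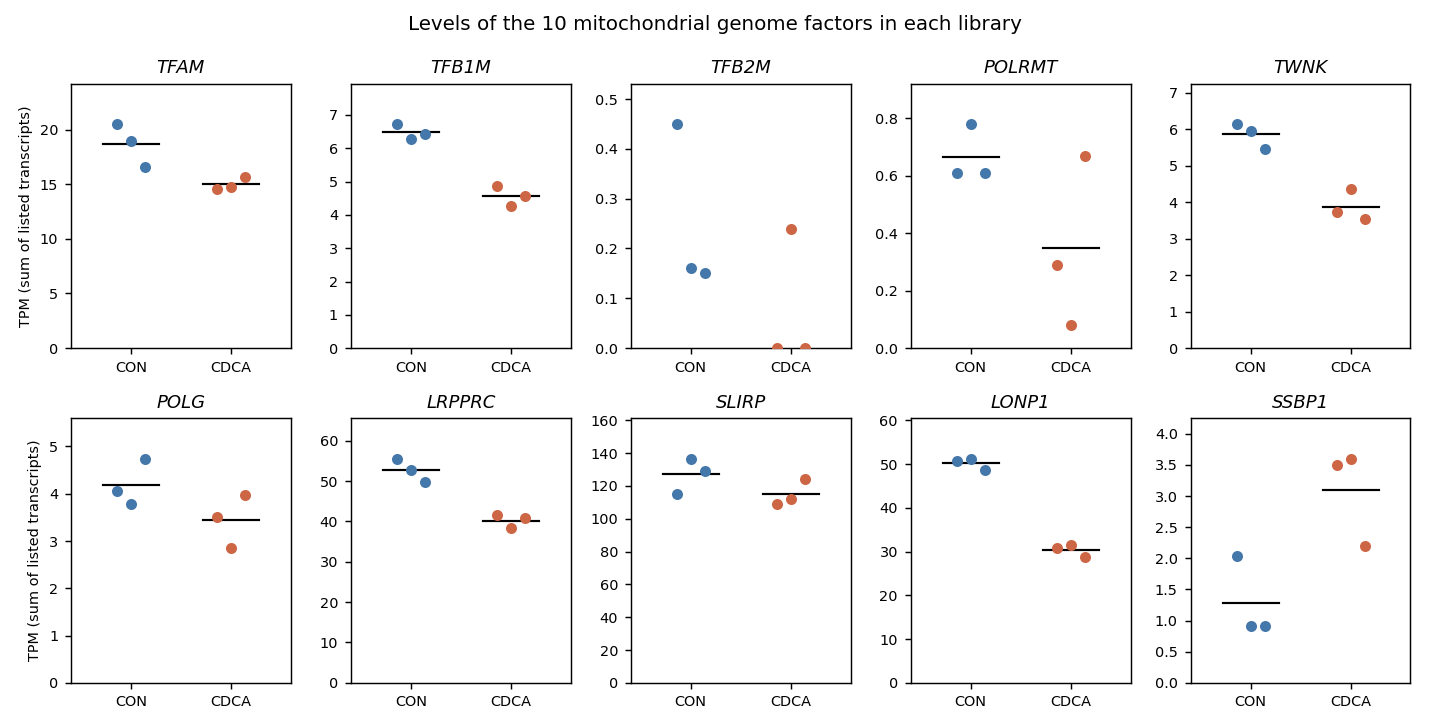
TPM (vertical axes, each from 0 on its own scale) of the 10 factors in the 3 CON and the 3 CDCA libraries, 1 point per library, with the group mean as a bar except for TFB2M, which was listed at 0 in 2 libraries. The groups did not overlap for TFAM, TFB1M, TWNK, LRPPRC, LONP1 (CDCA lower) and SSBP1 (CDCA higher).

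In the CON libraries SLIRP was the most abundant factor (127 ± 11 TPM, SD, n = 3), followed by LRPPRC (52.7 ± 2.8 TPM) and LONP1 (50.3 ± 1.4 TPM), TFAM (18.7 ± 2.0 TPM), TFB1M (6.48 ± 0.23 TPM), TWNK (5.85 ± 0.35 TPM), POLG (4.19 ± 0.50 TPM), SSBP1 (1.29 ± 0.65 TPM) and POLRMT (0.667 ± 0.098 TPM), with TFB2M last at 0.15 to 0.45 TPM. This order holds for the listed transcripts, and whether others are missing was not tested. Of the neighbours in this order, LRPPRC and LONP1 overlapped over the CON libraries (49.88 to 55.53 TPM and 48.70 to 51.24 TPM). In the CDCA libraries they no longer overlapped, with 38.26 to 41.49 TPM for LRPPRC and 28.83 to 31.41 TPM for LONP1. Also in CDCA, TFB1M (4.27 to 4.88 TPM) overlapped with TWNK (3.53 to 4.36 TPM), TWNK with POLG (2.85 to 3.97 TPM), and POLG with SSBP1 (2.20 to 3.6 TPM). There POLRMT (0.08 to 0.67 TPM) overlapped with TFB2M (0 to 0.24 TPM) as well.

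TFAM was listed at 20.51, 18.95 and 16.55 TPM in CON replicates 1, 2 and 3 and at 14.53, 14.70 and 15.69 TPM in the CDCA replicates. CON replicate 3 lay close to the CDCA libraries, and no CON library fell among them. The mean fell by 19.8%, a log2 fold change of -0.30 (SE 0.08 and limma FDR 0.023), and 1 of its 2 listed transcripts held 99.7% of the TPM. This result lay near the limit. Its limma FDR was 0.055 without CON replicate 1, 0.068 without CON replicate 2, 0.069 without CDCA replicate 1 and 0.063 without CDCA replicate 2, and the log2 fold change in these fits was between -0.28 and -0.23.

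TFB1M, the rRNA methyltransferase, had 6.73, 6.29 and 6.43 TPM in CON and 4.88, 4.27 and 4.58 TPM in CDCA. All 3 treated libraries were lower than all 3 controls, by a gap wider than the spread within either group. The mean fell by 29.4% (log2 fold change -0.43, SE 0.07 and limma FDR 0.0031). Leaving out single libraries gave log2 fold changes from -0.46 to -0.39. The gene had 1 listed transcript.

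TFB2M and POLRMT, which act at the promoter itself, were hardly represented among the listed transcripts. TFB2M was listed at 0.45, 0.16 and 0.15 TPM in CON, against 0, 0.24 and 0 TPM in CDCA. POLRMT was listed at 0.61, 0.78 and 0.61 TPM in CON, against 0.29, 0.08 and 0.67 TPM in CDCA, spread over 3 transcripts. The groups overlapped for both genes. With no filter on low values, which took 22549 genes into the fit, the log2 fold change was -0.21 (SE 0.12 and limma FDR 0.32) for TFB2M and -0.33 (SE 0.17 and limma FDR 0.26) for POLRMT, so that a difference was not detectable in these libraries. For scale, HSPE1 and HSPD1, picked after their values were seen, encode the partners of the mitochondrial chaperonin, and in CON they were listed at 490 ± 28 TPM (SD, n = 3) and 2.25 ± 0.21 TPM (SD, n = 3).

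**Figure D2:**
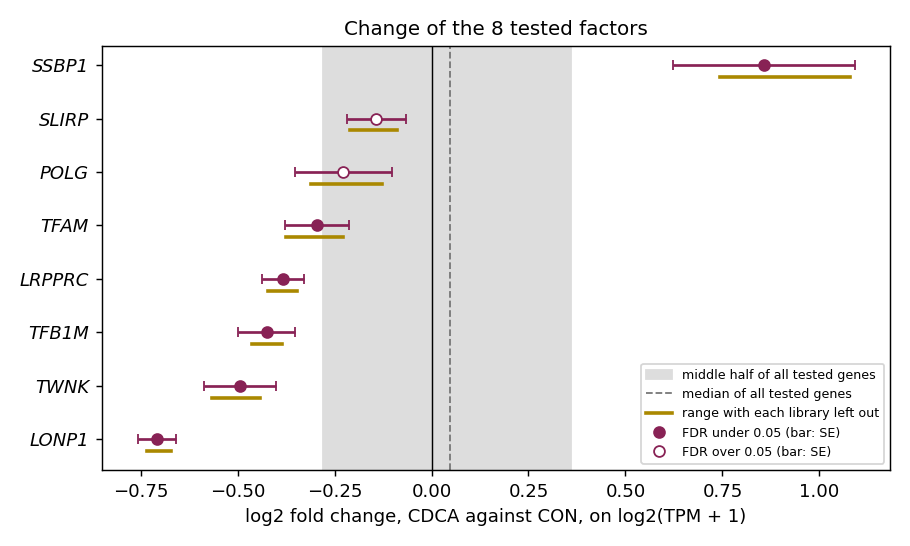
Log2 fold change of CDCA against CON on log2(TPM + 1) (horizontal axis) for the 8 tested factors, with the SE as a bar and, below it, the range over fits that left out 1 library. The shaded band runs from the first to the third quartile of all tested genes, -0.28 to 0.36. LONP1, at -0.71, lay lowest and SSBP1, at 0.86, highest.

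Of the replication factors, TWNK fell and POLG did not pass, whereas SSBP1, described below, rose on low values. TWNK, the helicase, had 6.14, 5.96 and 5.46 TPM in CON and 3.73, 4.36 and 3.53 TPM in CDCA, and the groups did not overlap. Its mean fell by 33.8% (log2 fold change -0.49, SE 0.09 and limma FDR 0.0043). Leaving out single libraries gave -0.57 to -0.44. POLG, the polymerase, had 4.05, 3.78 and 4.74 TPM in CON and 3.51, 2.85 and 3.97 TPM in CDCA. CDCA replicate 3 lay above CON replicate 2, and the log2 fold change of -0.23 (SE 0.13 and limma FDR 0.17) did not pass. With each library left out it ranged from -0.31 to -0.13. The POLG transcript of rank 1 was at 3.35, 3.28 and 2.70 TPM in CON, against 2.67, 2.60 and 3.74 TPM in CDCA, a ratio of means of 0.966, while that of rank 2 was at 2.04 TPM in CON replicate 3 and at 0 in 3 libraries. By the highest transcript alone, the log2 fold change of POLG was -0.05 (limma FDR 0.81).

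SSBP1 was the exception among the factors that passed. It was listed at 2.04, 0.92 and 0.91 TPM in CON, against 3.5, 3.6 and 2.2 TPM in CDCA. The groups did not overlap, but CON replicate 1 and CDCA replicate 3 lay close together. The mean rose from 1.29 ± 0.65 to 3.10 ± 0.78 TPM (SD, n = 3), a log2 fold change of 0.86 (SE 0.23 and limma FDR 0.020). The FDR was 0.064 without CON replicate 2, 0.063 without CON replicate 3, 0.063 without CDCA replicate 1 and 0.064 without CDCA replicate 2. Its 3 listed transcripts differed: that of rank 1 was at 1.21, 0 and 0.12 TPM in CON, against 2.49, 2.34 and 0.75 TPM in CDCA, that of rank 2 had a ratio of CDCA to CON means of 1.85, and that of rank 3 had one of 0.706. By the highest transcript alone, the log2 fold change was 1.01 with a limma FDR of 0.073. The level was low for each transcript, and whether they stand for the whole gene was not tested.

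**Figure D3:**
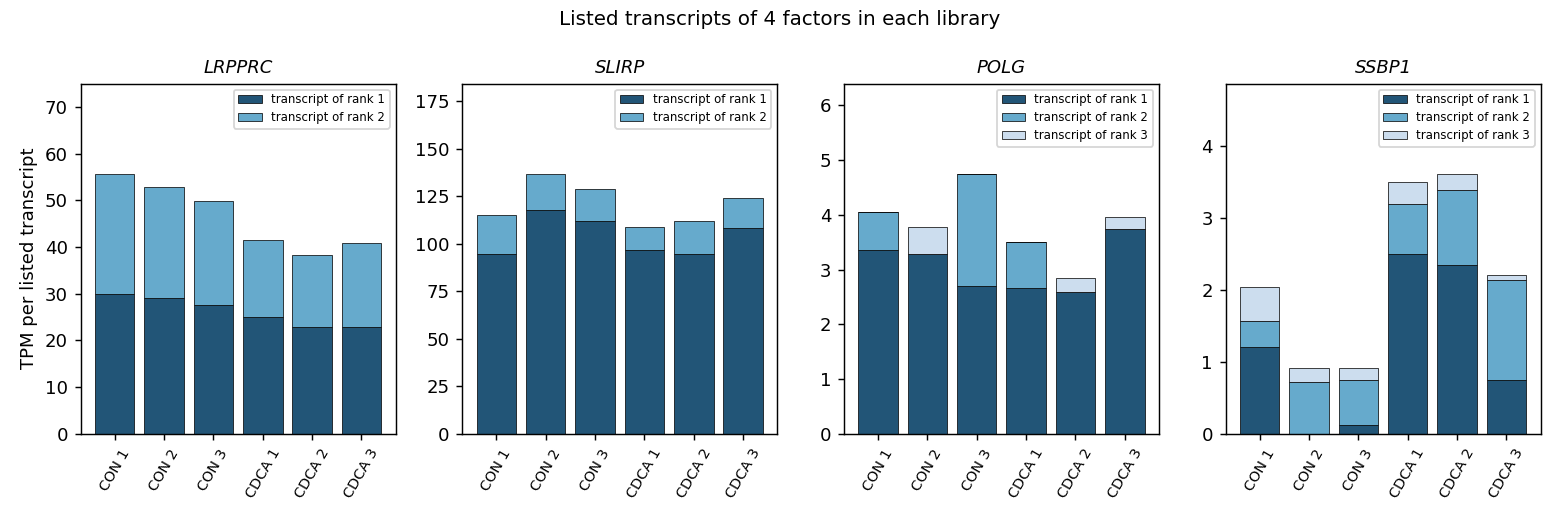
TPM of each listed transcript (stacked bars, 1 bar per library) for LRPPRC, SLIRP, POLG and SSBP1. Both LRPPRC transcripts were lower in all CDCA libraries than in all CON libraries, whereas the make-up of SSBP1 and of POLG varied between libraries of 1 group.

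Of the partners of the RNA stability complex, LRPPRC had 55.53, 52.80 and 49.88 TPM in CON and 41.49, 38.26 and 40.85 TPM in CDCA, so that the groups were clearly apart. It fell by 23.8% (log2 fold change -0.38, SE 0.06 and limma FDR 0.0014) and stayed between -0.42 and -0.35 with each library left out. Both of its transcripts took part, with ratios of CDCA to CON means of 0.817 for the one of rank 1 and 0.697 for the one of rank 2. The second transcript was at 25.52, 23.77 and 22.37 TPM in CON, against 16.53, 15.48 and 17.91 TPM in CDCA.

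SLIRP, the small RNA-binding partner, had 115.33, 136.52 and 129.06 TPM in CON and 108.86, 111.83 and 123.95 TPM in CDCA. CDCA replicate 3 lay above CON replicate 1, so the groups overlapped, and the log2 fold change of -0.14 (SE 0.08) had a limma FDR of 0.16. Without CON replicate 1 it was -0.21 (limma FDR 0.047), and with listed totals computed without the mtDNA-encoded mRNAs it was -0.30 (limma FDR 0.018). Without CON replicate 2 it was -0.09 (limma FDR 0.40), and SLIRP did not pass in 11 of 13 alternatives. Per TPM of SLIRP there were 0.481, 0.387 and 0.386 TPM of LRPPRC in CON and 0.381, 0.342 and 0.330 TPM in CDCA, a ratio of means of 0.839, which was 0.908 without CON replicate 1. The groups did not overlap, with CON replicate 3 just above CDCA replicate 1 (two-sided exact permutation test, p = 0.1, which with 3 libraries a group is the lowest possible, and 0.2 adjusted over 4 such ratios). TWNK per POLG had an exact p of 0.3 (0.4 adjusted), with 1.41 ± 0.23 (SD, n = 3) in CON, against 1.16 ± 0.33 (SD, n = 3) in CDCA. TFAM per SSBP1 went from 10.1, 20.6 and 18.2 in CON to 4.15, 4.08 and 7.13 in CDCA (exact p = 0.1, and 0.2 adjusted), on the low values of SSBP1. The fourth ratio, TFB2M per POLRMT, had an exact p of 1 and rests on values under 1 TPM, with 0 in 2 CDCA libraries.

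LONP1, the matrix protease, had the lowest FDR of the 8 tested factors. It had 50.80, 51.24 and 48.70 TPM in CON and 30.86, 31.41 and 28.83 TPM in CDCA. Its mean went from 50.3 ± 1.4 to 30.4 ± 1.4 TPM (SD, n = 3) and fell by 39.6%, a log2 fold change of -0.71 (SE 0.05 and limma FDR 5.7e-05). The value stayed between -0.73 and -0.67 with each library left out, and 1 of the 4 listed transcripts held 99.1% of the TPM. Among all tested genes, 8.38% had a lower log2 fold change than LONP1.

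The mRNAs encoded by mtDNA, the products of this machinery, moved much further than the factors. Their summed level over 13 mRNAs was 55015, 51047 and 49478 TPM in CON and 11476, 10529 and 12289 TPM in CDCA, and every CDCA library was below every CON library. The ratio of means was 0.220 (two-sided exact permutation test, p = 0.1, the smallest p possible), and between 0.212 and 0.229 with each library left out. All 13 fell, with log2 fold changes from -2.84 for COX1 to -1.29 for ND2 and a median of -2.26. The cytochrome c oxidase subunits COX3 (-2.70) and COX2 (-2.41) followed COX1. For each TPM of TFAM there were 2790 ± 174 TPM (SD, n = 3) of these mRNAs in CON, against 763 ± 41 TPM (SD, n = 3) in CDCA. For each TPM of LRPPRC there were 983 ± 14 TPM (SD, n = 3) in CON, against 284 ± 14 TPM (SD, n = 3) in CDCA. These 2 quantities were computed after the values were seen, and the difference between the factors and the mtDNA-encoded mRNAs was not tested. TPM add up to a fixed total within a library, and with the mtDNA-encoded mRNAs left out of the totals, the median log2 fold change of all tested genes shifted from 0.05 to -0.08. In both fits 7 of the 8 tested factors lay below the median of all tested genes. Such a scaling moves all genes of a library together, so this count could hardly change.

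**Figure D4:**
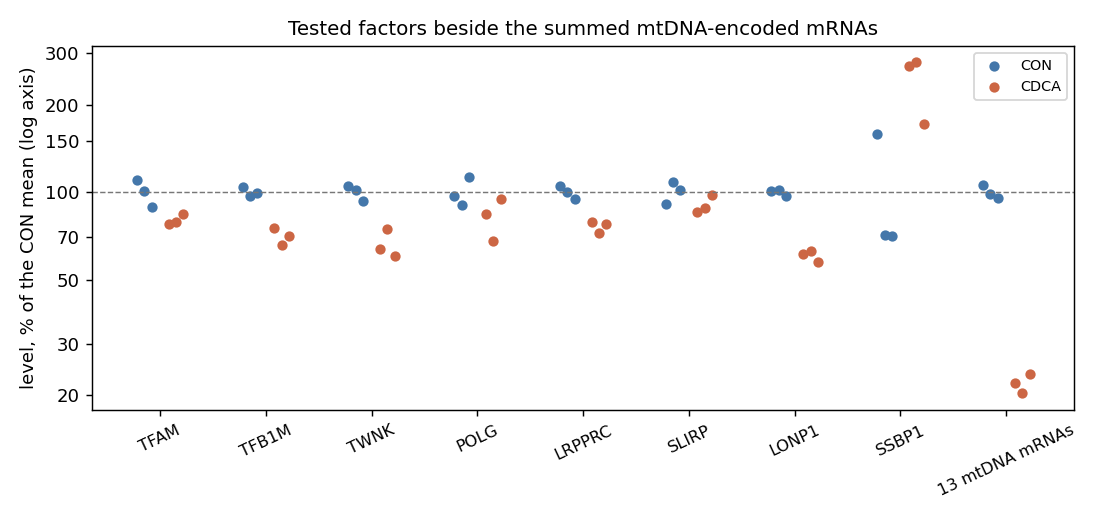
Level of each tested factor and of the summed mtDNA-encoded mRNAs in each library, as a percentage of the CON mean (vertical axis, log scale), 1 point per library. The mtDNA-encoded mRNAs lay between 20.3% and 23.7% of the CON mean in CDCA, whereas LONP1, the factor that fell furthest, lay between 57.4% and 62.5%.

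Further genes of the same processes were described from lists of 70 genes in 5 groups. Of these, 65 were in the table and 47 were tested, and 10 fell and 6 rose (21.3% and 12.8%), beside 23.9% and 29.3% of all tested genes. Of the 47, 4 were called, all of them lower, beside 7.42% of all tested genes. With the mtDNA-encoded mRNAs left out of the totals, 14 fell and 4 rose, beside 31.9% and 20.1% of all tested genes on that scale.

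In the list of mtDNA replication and maintenance, 4 of 12 tested genes fell and 3 rose, with a median log2 fold change of -0.06. The largest changes were those of FEN1, a flap endonuclease (9.12 ± 1.6 to 1.54 ± 0.96 TPM, SD, n = 3, log2 fold change -2.06), ENDOG, a mitochondrial endonuclease (5.03 ± 0.30 to 1.73 ± 0.44 TPM, -1.16), and MGME1, an exonuclease that trims mtDNA ends (18.8 ± 0.19 to 8.39 ± 0.20 TPM, -1.08). Their limma FDR was 0.0013, 0.00044 and 1.2e-05, and all 3 were called. FEN1 and DNA2 also serve the replication of nuclear DNA. DNA2, a helicase and nuclease named here because its profile was the closest to that of TWNK (-0.48, limma FDR 0.0056), and MPV17, an inner membrane protein needed to keep mtDNA (5.12 ± 0.39 to 8.49 ± 0.48 TPM, SD, n = 3, 0.63, limma FDR 0.00073), passed in all alternatives. PRIMPOL, a primase-polymerase (0.57, limma FDR 0.028), and SLC25A36, a carrier of pyrimidine nucleotides (0.89, limma FDR 0.021), rose, and each passed 0.05 in only some of the alternatives. For PRIMPOL the limma FDR without CON replicates 1 and 3 and CDCA replicates 1 and 3 was 0.073, 0.064, 0.086 and 0.086, and it was 0.067 with the mtDNA-encoded mRNAs left out of the totals and 0.071 with no filter on low values. For SLC25A36 it was 0.066 without CON replicate 2, 0.058 without CON replicate 3, 0.062 without CDCA replicate 1, 0.061 without CDCA replicate 3 and 0.056 with no filter. MPV17, PRIMPOL and SLC25A36 were picked after their values were seen. POLG2, the accessory subunit of the polymerase, was listed at 0 in all 6 libraries.

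Of 4 tested genes of transcription elongation and termination, MRPL12, a ribosomal protein that also binds POLRMT, fell from 90.6 ± 2.5 to 71.6 ± 4.9 TPM (SD, n = 3), a log2 fold change of -0.34 (limma FDR 0.0026). None rose by limma and 3 did not pass, while at an unadjusted p under 0.05 none was higher and 2 were lower. With the mtDNA-encoded mRNAs left out of the totals, and with median-ratio scaling, 2 fell. In those fits 31.9% and 27.0% of all tested genes fell.

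Of 17 tested genes of mitochondrial RNA processing and stability, 4 fell and 1 rose (23.5% and 5.88%), with a median log2 fold change of -0.09. Of all tested genes, 23.9% fell and 29.3% rose. ELAC2, which cuts the 3′ ends of mitochondrial tRNAs, had 11.12, 8.94 and 12.72 TPM in CON and 3.84, 2.02 and 3.06 TPM in CDCA (log2 fold change -1.60, SE 0.20 and limma FDR 0.00067), and was the only one called. TRMT10C, a subunit of the enzyme that cuts the 5′ ends, went from 4.47 ± 0.40 to 2.67 ± 0.13 TPM (SD, n = 3, log2 fold change -0.57, limma FDR 0.0019). Of the rRNA methyltransferases, MRM2 rose from 10.3 ± 0.42 to 16.2 ± 1.3 TPM (SD, n = 3, log2 fold change 0.61, limma FDR 0.00052) and MRM3 had a log2 fold change of -0.47 (limma FDR 0.0027). PDE12, which removes poly(A) tails, had a log2 fold change of -0.35 (limma FDR 0.020), and its FDR was 0.067 without CON replicate 2 and 0.061 without CDCA replicate 2. MRM3 and PDE12 were picked after their values were seen. The other 12 tested genes did not pass. The number that rose was 2 with the listed TPM rescaled to 1000000, by the highest listed transcript, and without CON replicate 1. In these fits 26.2%, 26.5% and 27.4% of all tested genes rose.

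**Figure D5:**
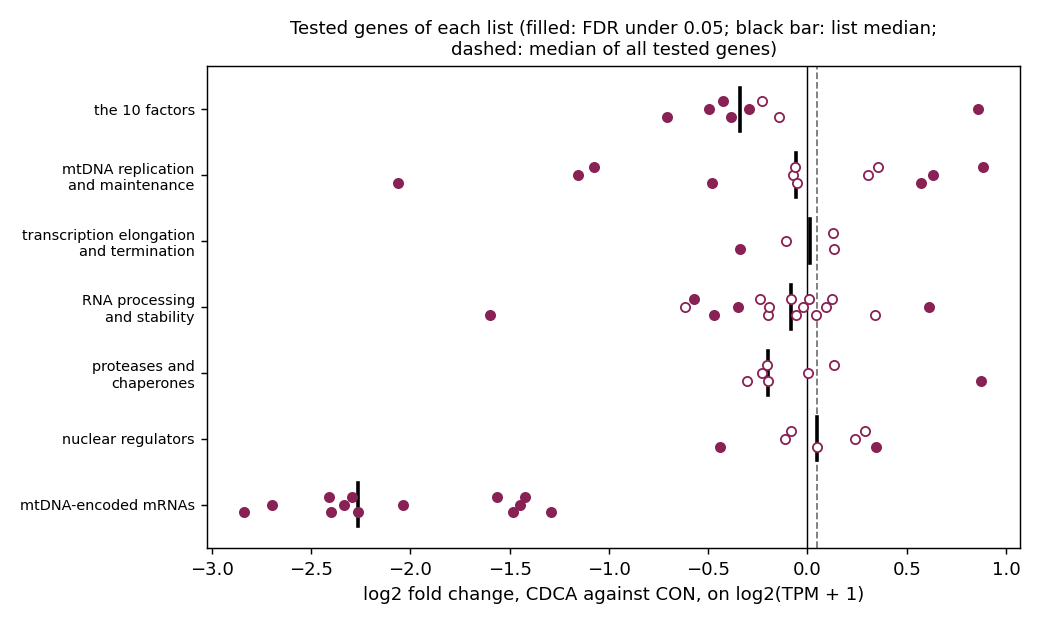
Log2 fold change of CDCA against CON (horizontal axis) for each tested gene of the 10 factors, the 5 lists of related nuclear genes and the 13 mtDNA-encoded mRNAs. Points of the nuclear lists lie on both sides of 0, and those of the mtDNA-encoded mRNAs lie between -2.84 and -1.29.

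LONP1 was set beside other mitochondrial proteases and chaperones, of which 7 were tested. HSPA9, the mitochondrial HSP70 that helps to pull proteins into the matrix, rose from 126 ± 8.4 to 231 ± 2.3 TPM (SD, n = 3), a log2 fold change of 0.87 (SE 0.05 and limma FDR 3.6e-05). None of the 7 fell by limma, with 2 lower and 2 higher at an unadjusted p under 0.05. The number that fell was 2 with the mtDNA-encoded mRNAs left out of the totals. It was 1 with median-ratio scaling and 1 without CDCA replicate 1. In these fits 31.9%, 27.0% and 21.2% of all tested genes fell. The number that rose was 2 with a pseudocount of 0.1 TPM, with the listed TPM rescaled to 1000000 and without CON replicate 1. There 29.1%, 26.2% and 27.4% of all tested genes rose. LONP1 and HSPA9 thus passed in opposite directions. CLPP, another matrix protease, went from 15.3 ± 1.9 to 12.9 ± 0.47 TPM (SD, n = 3, limma FDR 0.065), picked after its value was seen.

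Of 7 tested nuclear regulators, PPARGC1B, a coactivator of mitochondrial genes, had 1.54, 1.26 and 1.65 TPM in CON and 0.90, 0.94 and 0.65 TPM in CDCA and fell (log2 fold change -0.44, limma FDR 0.026). ESRRA, a nuclear receptor that works with it, rose from 6.38 ± 0.31 to 8.43 ± 1.2 TPM (SD, n = 3, log2 fold change 0.35, limma FDR 0.026). Neither held in every fit: the FDR of PPARGC1B was 0.069 without CON replicate 1, 0.079 without CON replicate 3 and 0.076 without CDCA replicate 3, and that of ESRRA was 0.072 without CON replicate 1, 0.063 without CON replicate 3 and 0.10 with the mtDNA-encoded mRNAs left out of the totals. NRF1, the factor named for its sites in promoters of such genes, had a log2 fold change of 0.24 (limma FDR 0.24), and was picked after its value was seen. GABPA, GABPB1, PPARGC1A and PPRC1 had means under 1 TPM and were not tested.

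Across the 6 libraries, the gene of these 5 lists whose profile was most like that of each factor was found by Pearson's r of log2(TPM + 1) over 47 candidates. LONP1 was closest to MGME1 (r = 0.996), TFB1M to ELAC2 (0.988), TWNK to DNA2 (0.979), LRPPRC to MTERF3 (0.971), SSBP1 to HSPE1 (0.958), TFAM to TRMT61B (0.926), POLG to TOP3A (0.869) and SLIRP to TOP3A (0.804). The closest gene was often 1 of several. Of the 47 candidates, r was over 0.9 for 9 with LONP1, 8 with TFB1M, 8 with LRPPRC and 6 with TWNK. It was over 0.9 for 2 with TFAM, 1 with SSBP1 and 0 with POLG and SLIRP. The 6 libraries fall into 2 groups, and how much of each r lies between rather than within them was not tested. The values are given as a description.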

How the data were processed

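The authors sequenced libraries of total RNA from IPEC-J2 cells on an Illumina instrument, quantified abundance with RSEM and deposited TPM values with up to 2 decimals for 63041 transcripts of 31908 Ensembl pig gene IDs. The submitters' processing notes also name Bowtie 0.12.2 and the mouse build mm10, whereas the IDs are those of pig; the annotation release is not given in the sources used here, so no coordinates are printed. TPM keep no depth, so counting error has no interval here. Column names matched the 6 sample titles. Symbols came from the deposited table (16719 IDs) or, where blank, from a table of Ensembl symbols (782 IDs).

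TPM were summed per gene ID. The test was limma 3.58.1 in R 4.3.3 (lmFit and eBayes, trend = TRUE), fitted to log2(TPM + 1) over the 8708 genes whose mean reached 1 TPM, with Benjamini-Hochberg adjustment. The added 1 TPM understates fold changes of low genes. The study's edgeR test needs counts and was not used. The steps were tested on simulated data. Members, lists and thresholds were chosen with earlier results of these data known. Named genes were all members and, per list, the 3 largest changes with an FDR under 0.05, and the list gene closest in profile to each tested member; others are marked as picked after their values were seen or are named only as absent or low. The planned search of promoters for motifs and the printing of protein sequences were not done here.

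Alternatives were a pseudocount of 0.1 TPM, no filter, 3 other scalings, the replicate number as a block, the highest listed transcript, and each library left out. The scalings were by the listed TPM without the mtDNA-encoded mRNAs, by all listed TPM, and by median ratios.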

Additional observations from a re-analysis of the deposited data

How the results depend on the processing

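LONP1, TWNK, TFB1M and LRPPRC kept their direction and an FDR under 0.05 by limma in all 13 alternatives; POLG kept its direction and an FDR over 0.05 in all 13, and SLIRP its direction in all 13 and an FDR over 0.05 in 11. TFAM and SSBP1 kept their direction in all 13 and an FDR under 0.05 in 7 each. With no filter on low values, 0 factors rose and 3 genes of the 5 lists rose in place of 6, while the share of all tested genes that rose went from 29.3% to 11.5%. In that fit the FDR was 0.053 for TFAM, 0.055 for SSBP1, 0.068 for PPARGC1B and 0.059 for ESRRA. By the highest listed transcript, 0 factors rose, and with each library left out the count was between 0 and 1. The count of called factors was 1 (SSBP1) with a pseudocount of 0.1 TPM and with the listed TPM rescaled to 1000000, and from 0 to 1 over the fits that left out a library. In each case the cause was not tested, except that the fit without a filter took in 22549 genes. With the replicate number as a replicate block, 4 factors fell in place of 5, TFAM having an FDR of 0.055, and the FDR was 0.068 for PRIMPOL, 0.068 for PPARGC1B and 0.057 for PDE12. The replicates share only a number: libraries of the same number had correlations of their deviations of -0.04, -0.09 and -0.05. With the mtDNA-encoded mRNAs left out of the totals, 31.9% of all tested genes fell and 20.1% rose. The ratio of TFAM to SSBP1 by the highest transcript has no value, since CON replicate 2 is at 0. The number of reads behind the low values of TFB2M, POLRMT and SSBP1 is unknown.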
